A study of Mus musculus with 12 samples.

Results

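The acute-phase genes described here encode the serum amyloid A proteins Saa1, Saa2, Saa3 and Saa4, the alpha-1-acid glycoproteins Orm1 and Orm2, the heme-handling plasma proteins haptoglobin (Hp) and hemopexin (Hpx), the siderophore-binding protein lipocalin-2 (Lcn2) and the protease inhibitor Serpina3n. They were chosen by name, 10 of the 24187 genes in the deposited counts, and their differences between injured and control livers were known when they were chosen. Those differences are therefore given as a description and nothing is read from edgeR's calls on them, while the comparison of the treatments within injured livers serves as a test. All 10 passed the filter on low counts, as did 22581 genes in all. Levels are CPM, a gene's counts relative to its library's total after TMM scaling, which corrects that total for composition, and differences are edgeR log2 fold changes with their standard errors.

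The labels give 12 mouse livers in 3 groups, measured by bulk RNA sequencing of ribosomal-RNA-depleted total RNA. Control mice (n = 3) were labelled as without injury and without treatment. Vehicle mice (n = 5) received acetaminophen (APAP, paracetamol), which injures hepatocytes around the central vein, and PBS. hAAM mice (n = 4) received APAP and human alternatively activated macrophages, that is, monocyte-derived cells of human donors matured with CSF1 and polarised with IL-4 and IL-13, then frozen, thawed and injected intravenously once injury was established. The labels give 350 mg/kg APAP, whereas the study's methods name this dose and a higher one without saying which the sequenced livers had. The study shows the sequencing in its figure on a severe model of injury, for which it names the higher dose, so label and figure differ. The methods describe young adult wild-type C57BL/6 mice of either sex, name the substrain in more than one way, and state that mice fasted before receiving APAP or saline alone. They also name more than one time of collection after APAP. Which of these times the sequenced livers had, whether the sequenced controls were such saline mice, and the sex of the sequenced mice are not given in the sources used here. Fasting, injection and injury thus cannot be told apart in any difference from control. The labels mark replicates of a group as separate mice by number only, so p-values measure the spread between these livers.

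Several libraries stood apart. Total counts ranged from 47391650 to 74056505, and all 7 hepatocyte markers fixed for checking the tissue were measured, at a summed 75197 to 115035 CPM. Between the libraries of vehicle replicate 3 and hAAM replicate 4 the spread over genes was 1.2 times what counting alone gives, while the remaining 35 pairs of injured livers had 2.38 to 4.94 times, although their labels place them in different groups. Whether these are 2 separate livers, each under its own label, cannot be told from the files, and the numbers of livers and the comparison of the treatments take the labels as given. Differences between the treatments are also given with both left out, and the calls of named genes that end without both are listed. Vehicle replicate 5 had the highest red cell marker sum, 2032 CPM against 221 to 735 CPM in the other injured livers, and the highest B-lineage sum, 8.77 CPM against 1.63 to 4.14 CPM. Its adipocyte sum, of the tested markers Cfd and Cidec, was also the highest, 30.5 CPM against 2.52 to 10.1 CPM. Control replicate 1 had the lowest level of the controls in 9 of the 10 acute-phase genes (90%, against 38% of all genes tested), the exception being Saa3.

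The acute-phase response is the shift in the liver's plasma protein output after infection or tissue damage. In hepatocytes, IL-6 and related cytokines act through gp130 (Il6st) and Stat3, and IL-1 and TNF act through NF-kB and C/EBP factors, which together raise the transcription of positive acute-phase genes and lower that of negative ones such as albumin. Serum amyloid A proteins travel on high-density lipoprotein. Saa1 and Saa2 are made mainly in the liver, Saa3 in macrophages and adipose tissue as well as liver, and Saa4 is the constitutive member of the family.

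The bases before the RefSeq start are shown for the 3 serum amyloid A genes with the largest differences from control and for Lcn2, whose level overlapped between all groups. The table of RefSeq windows on GRCm38.p6 used here was matched for 8 of the 10 genes, Orm1 and Hp being the others, and each sequence is the 250 bases before that start, 5′ to 3′ on the gene's strand. These starts are not always those of the GENCODE genes given further on, so that the Lcn2 window lies wholly, and the Saa2 and Saa3 windows partly, within the GENCODE gene. Capitals mark matches, on either strand, to the C/EBP letters TTGCNNAA or to the 10-letter NF-kB consensus.
Saa1: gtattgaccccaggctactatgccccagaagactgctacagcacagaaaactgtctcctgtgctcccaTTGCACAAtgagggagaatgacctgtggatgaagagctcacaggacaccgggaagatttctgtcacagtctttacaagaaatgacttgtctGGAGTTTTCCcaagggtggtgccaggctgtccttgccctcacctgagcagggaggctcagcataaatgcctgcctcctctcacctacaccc
Saa2: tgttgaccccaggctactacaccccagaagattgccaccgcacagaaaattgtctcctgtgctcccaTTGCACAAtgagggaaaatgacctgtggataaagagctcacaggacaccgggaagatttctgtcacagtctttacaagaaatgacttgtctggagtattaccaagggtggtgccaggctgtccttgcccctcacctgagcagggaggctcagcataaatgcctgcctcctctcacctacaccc
Saa3: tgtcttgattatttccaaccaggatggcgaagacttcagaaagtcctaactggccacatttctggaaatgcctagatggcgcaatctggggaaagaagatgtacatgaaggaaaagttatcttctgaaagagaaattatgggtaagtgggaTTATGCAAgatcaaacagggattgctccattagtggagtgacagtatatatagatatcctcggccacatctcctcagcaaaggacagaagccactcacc
Lcn2: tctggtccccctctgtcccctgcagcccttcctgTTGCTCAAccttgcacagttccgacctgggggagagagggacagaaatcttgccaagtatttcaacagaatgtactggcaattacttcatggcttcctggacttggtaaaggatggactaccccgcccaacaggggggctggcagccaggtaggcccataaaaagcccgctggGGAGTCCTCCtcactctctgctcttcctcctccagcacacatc
They lie at chr7:46742981-46743230 (minus strand), chr7:46751583-46751832 (plus strand), chr7:46715677-46715926 (minus strand) and chr2:32387740-32387989 (minus strand). Saa1 held a C/EBP match from −182 to −175 and an NF-kB match from −91 to −82, counted from the start. Saa2 was identical to Saa1 at 238 of 251 aligned positions (94.8%) and held the C/EBP match at −183 to −176, without the NF-kB one. Saa3 shared 48.5% of aligned positions with Saa1 and had its C/EBP match at −99 to −92, whereas Lcn2 had a C/EBP match at −216 to −209 and an NF-kB match at −43 to −34. Of the remaining genes, Saa4 held 2 C/EBP matches, Orm2 and Hpx 1 each and Serpina3n none, and no gene of the 8 held the STAT letters TTCNNNGAA. Among 32851 windows of the same length, 9.6% held the C/EBP letters, 9.5% the NF-kB consensus and 7.0% the STAT letters. None of these matches overlapped another, and a match describes letters, not a bound site.

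Saa1, Saa2 and Saa3 had the largest differences of the 10. The 4 genes lie within 42.3 kb of chromosome 7 (GRCm38, GENCODE annotation, as for all genes here), and no other annotated gene overlaps any of the 10. Saa1 (ENSMUSG00000074115, chr7:46740497-46742980, minus strand) stood at 2017, 5359 and 7674 CPM in control replicates 1 to 3. In vehicle replicates 1 to 5 it stood at 179, 148, 167, 38 and 329.7 CPM, and in hAAM replicates 1 to 4 at 131, 241, 799 and 178 CPM. Every injured liver was below every control, the log2 fold change being −4.86 (SE 0.720) with vehicle and −3.89 (SE 0.758) in hAAM livers, or 29.1-fold and 14.9-fold lower. Without hAAM replicate 3, the highest injured liver, the latter was −4.77.

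Saa2 (ENSMUSG00000057465, chr7:46751790-46754313, plus strand) is transcribed away from Saa1 and behaved alike within each group. It stood at 1893, 6236 and 9545 CPM in control livers. With vehicle it stood at 132, 101, 111, 21.2 and 372 CPM, and with hAAMs at 90.7, 155, 544 and 121 CPM. Vehicle replicate 4 was again the lowest and hAAM replicate 3 the highest injured liver. The log2 fold change was −5.32 (SE 0.860) with vehicle and −4.69 (SE 0.920) with hAAMs, or −6.01 without vehicle replicate 5 and −5.59 without hAAM replicate 3. The coding sequences of Saa1 and Saa2 are identical at 348 of 366 bases (95.1%), so that reads can be exchanged between them, and 13.2% of the 50-base stretches of the Saa1 transcript recur in Saa2. Their sum, which no exchange between them can move, was 3910, 11594 and 17219 CPM in control livers. In vehicle livers it was 319.9 ± 235 CPM (SD, n = 5) and in hAAM livers 565 ± 524 CPM (SD, n = 4). The log2 fold changes were −5.09 (SE 0.784) and −4.27 (SE 0.831), the latter −5.16 without hAAM replicate 3.

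**Figure D1:**
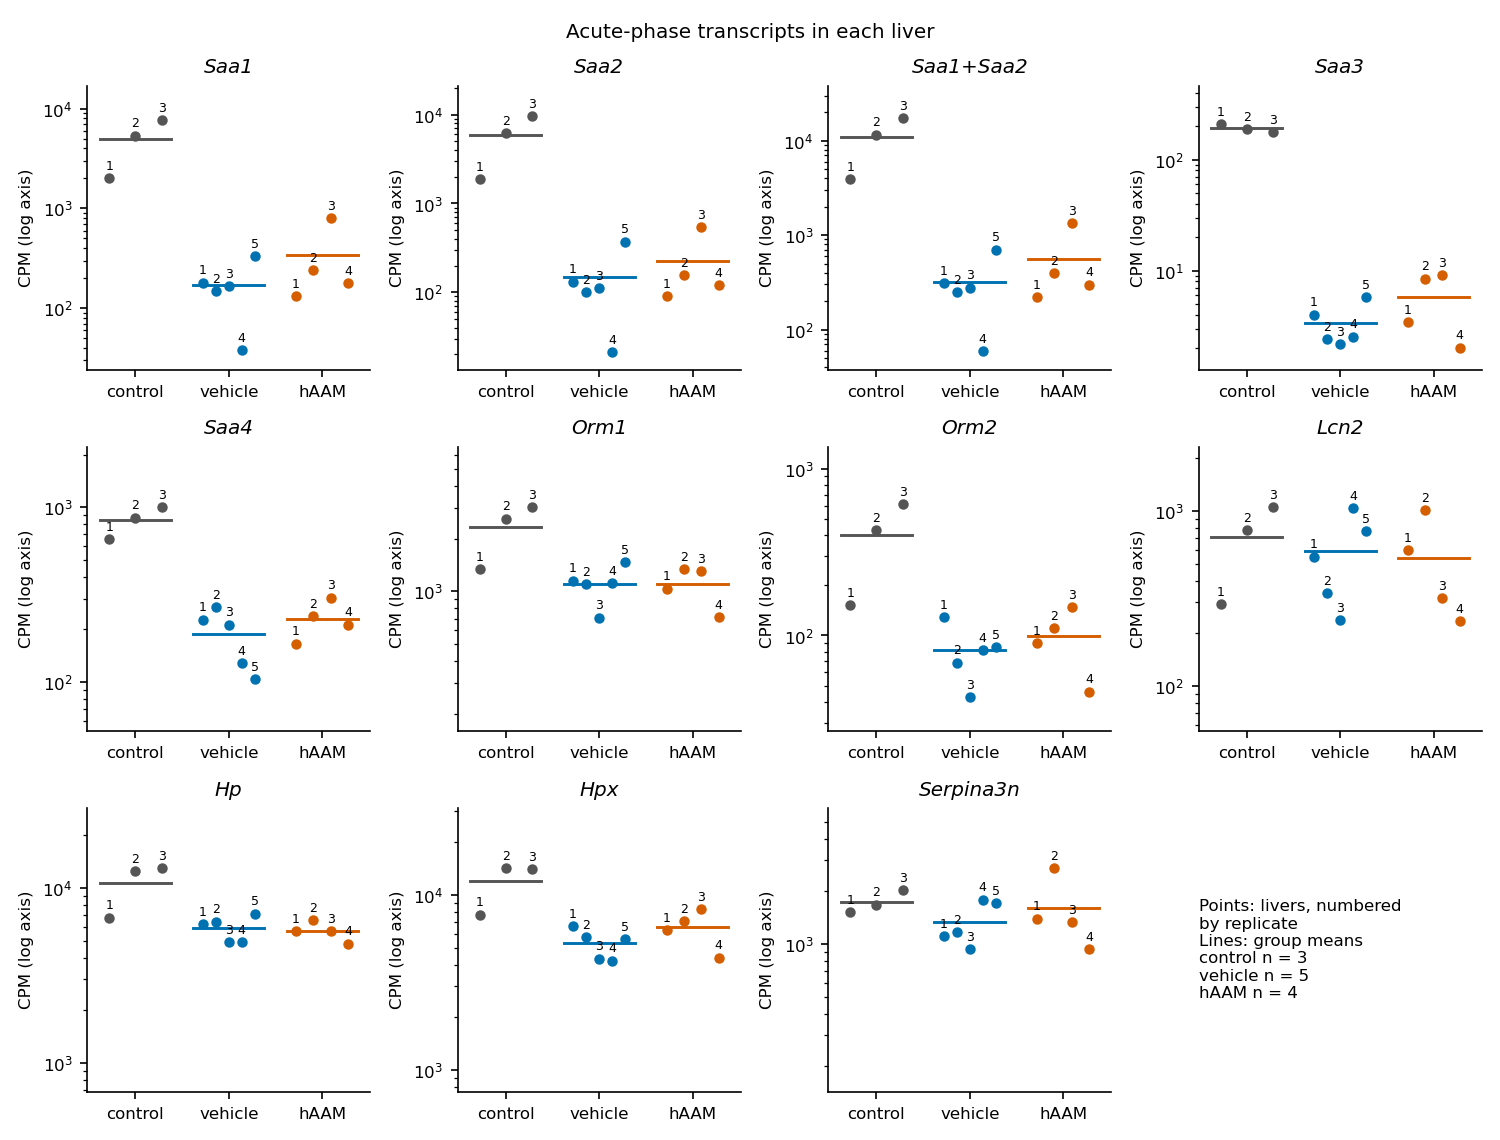
Level of each of the 10 acute-phase genes and of the Saa1 and Saa2 sum in every liver (CPM, log axis, each panel with its own range). Points are livers numbered by replicate and lines are group means (control n = 3, vehicle n = 5, hAAM n = 4). For the sum, the 9 injured livers sit between 59.1 and 1344 CPM and the controls between 3910 and 17219 CPM, whereas the groups overlap for Lcn2 and Serpina3n.

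Saa3 (ENSMUSG00000040026, chr7:46711998-46715700, minus strand) had the largest difference with all livers in the fit, and the steadiest control level. Control livers held 209, 188 and 176 CPM, a coefficient of variation of 8.73% against 56.7% for Saa1. Vehicle livers held 4.01, 2.40, 2.17, 2.54 and 5.75 CPM and hAAM livers 3.44, 8.46, 9.06 and 2.02 CPM. The log2 fold change was −5.82 (SE 0.464) with vehicle and −5.06 (SE 0.493) with hAAMs, or 56.4-fold and 33.3-fold lower. With hAAMs Saa3 reached at most −5.36 over all settings, whereas Saa2 was −5.59 without hAAM replicate 3. Unlike every other gene of the 10, Saa3 was highest, not lowest, in control replicate 1. Macrophages are a known source of Saa3, and the Kupffer cell marker sum was 188 to 254 CPM in control and 212 to 348 CPM in injured livers. Within that list, mean Clec4f was 75.8 CPM in control, 54.5 with vehicle and 59.2 with hAAMs, and mean Marco 19.5, 62.7 and 54.6 CPM. The sum of the 9 markers of recruited monocytes and macrophages, mostly Fn1, was 3967 to 5082 CPM in control and 3884 to 6543 CPM in injured livers. Apart from Fn1 its members had higher means in both injured groups than in control, among them Ccr2 (2.79 CPM in control, 17.2 with vehicle and 16.1 with hAAMs), Chil3 (0.651, 33.2 and 28.4 CPM) and Gpnmb (0.754, 17.5 and 32.5 CPM). The part of cell composition in the Saa3 difference was not tested. In these bulk samples, fewer cells of a type and less RNA per cell cannot be told apart.

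Saa4 (ENSMUSG00000040017, chr7:46727998-46732603, minus strand) was lower by less. It stood at 654, 870 and 1004 CPM in control livers. Vehicle livers held 228, 269, 213, 128 and 104 CPM and hAAM livers 166, 238, 304 and 213 CPM, so that all injured livers were below all controls. The log2 fold change was −2.16 (SE 0.290) and −1.87 (SE 0.309).

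The proportions within the family differed between groups as a description. Saa1 made up 44.6% to 51.6% of the Saa1 and Saa2 sum in control livers, 57.6% to 64.2% in 4 vehicle livers, 47% in vehicle replicate 5 and 59.1% to 60.8% in hAAM livers. Vehicle replicate 5 thus had the control-like share, and hAAM livers spanned the narrowest range. hAAM and vehicle livers differed by 2.11 percentage points in this share (two-sided exact permutation test, p = 0.675, adjusted over the 3 shares tested 0.817), by −0.554 points without vehicle replicate 5 and by 2.74 points without both nearly alike libraries. Saa3 made up 0.737% ± 0.363 (SD) of all 4 genes with vehicle and 0.785% ± 0.410 with hAAMs, against 2.28% ± 1.84 in control livers. The groups overlapped, with vehicle replicate 4 and hAAM replicate 2 (1.32%) both above control replicate 3 (0.957%). The difference of 0.0473 points between hAAM and vehicle livers was within the spread (exact permutation test, p = 0.817, adjusted 0.817), and turned to −0.131 points without hAAM replicate 2, −0.0217 without vehicle replicate 2 and −0.0272 without vehicle replicate 3, while it was 0.104 points without both nearly alike libraries.

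Orm1 and Orm2 encode alpha-1-acid glycoprotein (orosomucoid), a plasma lipocalin that binds lipids and drugs. They lie within 21.3 kb on chromosome 4. Orm1 (ENSMUSG00000039196, chr4:63344560-63348163, plus strand) stood at 1336, 2607 and 3041 CPM in control livers. It stood at 1152, 1105, 707, 1115 and 1467 CPM with vehicle and 1038, 1343, 1311 and 713 CPM with hAAMs. Control replicate 1 lay inside the range of the injured livers, and the log2 fold change was −1.07 (SE 0.287) and −1.08 (SE 0.304). Orm2 (ENSMUSG00000061540, chr4:63362449-63365878, plus strand) stood at 153, 430 and 614 CPM in control livers. It stood at 129, 68.7, 42.5, 81.7 and 84.7 CPM with vehicle and 89.7, 110.4, 148 and 46.1 CPM with hAAMs. Its injured livers were all below the controls, by −2.29 (SE 0.444) and −2.01 (SE 0.474). The nearly alike libraries, vehicle replicate 3 and hAAM replicate 4, held the lowest level of both genes within their groups.

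The Orm1 and Orm2 coding sequences are identical at 558 of 621 bases (89.9%), with 20.4% of 50-base and 7.0% of 100-base stretches of the Orm1 transcript recurring in Orm2. Orm1 made up 83.2% to 89.7% of the pair in control, 89.9% to 94.5% in vehicle and 89.8% to 93.9% in hAAM livers. hAAM and vehicle livers differed by −1.17 percentage points (two-sided exact permutation test, p = 0.349, adjusted 0.817), and by −1.52 points without both nearly alike libraries. Orm3, the third copy, was low in every group, at 10.3 ± 5.02 CPM in control, 2.52 ± 0.968 CPM in vehicle and 2.62 ± 1.51 CPM in hAAM livers (SD).

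Hp binds free hemoglobin and Hpx binds free heme, and both deliver their cargo for uptake and breakdown. Hp (ENSMUSG00000031722, chr8:109575128-109579172, minus strand) stood at 6763, 12437 and 13028 CPM in control livers. It stood at 6239, 6414, 4882, 4911.5 and 7146 CPM with vehicle and 5676, 6535, 5662 and 4814 CPM with hAAMs. Vehicle replicate 5, with the highest red cell markers, exceeded control replicate 1, and the log2 fold change was −0.86 (SE 0.226) and −0.92 (SE 0.239). Hpx (ENSMUSG00000030895, chr7:105591613-105600137, minus strand) stood at 7725, 14272 and 13987 CPM in control livers. It stood at 6653, 5746, 4315, 4210.0 and 5564 CPM with vehicle and 6286, 7098, 8313 and 4386 CPM with hAAMs. All vehicle livers were below all controls, but hAAM replicate 3 exceeded control replicate 1. The log2 fold change was −1.18 (SE 0.259) with vehicle and −0.88 (SE 0.274) with hAAMs.

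Lcn2 and Serpina3n differed least from control. Lcn2 binds bacterial iron carriers, is induced in hepatocytes and is stored in neutrophil granules. Lcn2 (ENSMUSG00000026822, chr2:32384633-32388252, minus strand) stood at 294, 774 and 1054 CPM in control livers. It stood at 548, 338, 237, 1041 and 768 CPM with vehicle and 594, 1013, 317 and 234 CPM with hAAMs. The groups overlapped over nearly their whole range, and the log2 fold change was −0.27 (SE 0.558) and −0.39 (SE 0.59). Without control replicate 3 it was 0.14 and 0.02. Serpina3n, which inhibits serine proteases released by immune cells (ENSMUSG00000021091, chr12:104406729-104414329, plus strand), stood at 1522, 1672 and 2023 CPM in control livers. It stood at 1108, 1169, 929, 1791 and 1715 CPM with vehicle and 1396, 2718, 1333 and 934 CPM with hAAMs. Its log2 fold change was −0.37 (SE 0.312) and −0.12 (SE 0.329), the latter 0.06 without hAAM replicate 4.

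Both genes were highest in the 4 injured livers with the highest neutrophil and cholangiocyte marker sums. The 4 injured livers with the most Lcn2 were vehicle replicates 4 and 5 and hAAM replicates 1 and 2. The summed level of the 10 tested neutrophil markers of 11 was 60.4 and 54.2 CPM in the former pair and 45.4 and 53.8 CPM in the latter, against 12.9 to 34.8 CPM in the other injured livers and 8.20 to 33.1 CPM in control livers. Control livers had the opposite order. Control replicate 3 had their lowest neutrophil sum (8.20 CPM) and their most Lcn2 and Serpina3n (1054 and 2023 CPM). Control replicate 1 had their highest sum (33.1 CPM) and their least Lcn2 and Serpina3n (294 and 1522 CPM). None of these 10 markers was at 0 in any liver, although the granule genes Ngp, Camp and Ltf had group means of at most 0.219 CPM. Csf3r had the highest mean of the list in every group (7.42 CPM in control, 16.1 with vehicle and 15.9 with hAAMs). Mean Retnlg and Camp were lower in both injured groups than in control, S100a9 lower with hAAMs only, and the others higher in both. The sum of the 6 cholangiocyte markers was 301 and 130.2 CPM, and 227 and 231 CPM, in the same livers, against 64.0 to 116 CPM in the other injured livers. That sum came mostly from Spp1 and Sox9, which other cells also express, while Epcam, Krt7, Krt19 and Cftr had group means of at most 1.59 CPM. Within each treatment the recruited monocyte and macrophage sum was highest in the same livers. It was 6543 and 6028 CPM in vehicle replicates 4 and 5, and 4568 and 4217 CPM in hAAM replicates 1 and 2. Vehicle replicate 2, at 4839 CPM, lay above both of these hAAM livers. Other orders were seen for the Kupffer cell sum, highest in vehicle replicate 1 (348 CPM) and hAAM replicate 3 (318 CPM), the red cell sum, highest in vehicle replicate 5 and hAAM replicate 3, and the stellate cell sum, highest in hAAM replicates 1 and 2. The hepatocyte sum was 77420 to 89084 CPM in the 4 livers with the most Lcn2, against 85180 CPM in vehicle replicate 1 and 100748 to 115035 CPM in the remaining injured livers. Saa1 and Saa2 did not follow the neutrophil order, since vehicle replicate 4 held their lowest sum, 59.1 CPM. The part of these cells in the Lcn2 and Serpina3n levels was not tested.

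**Figure D2:**
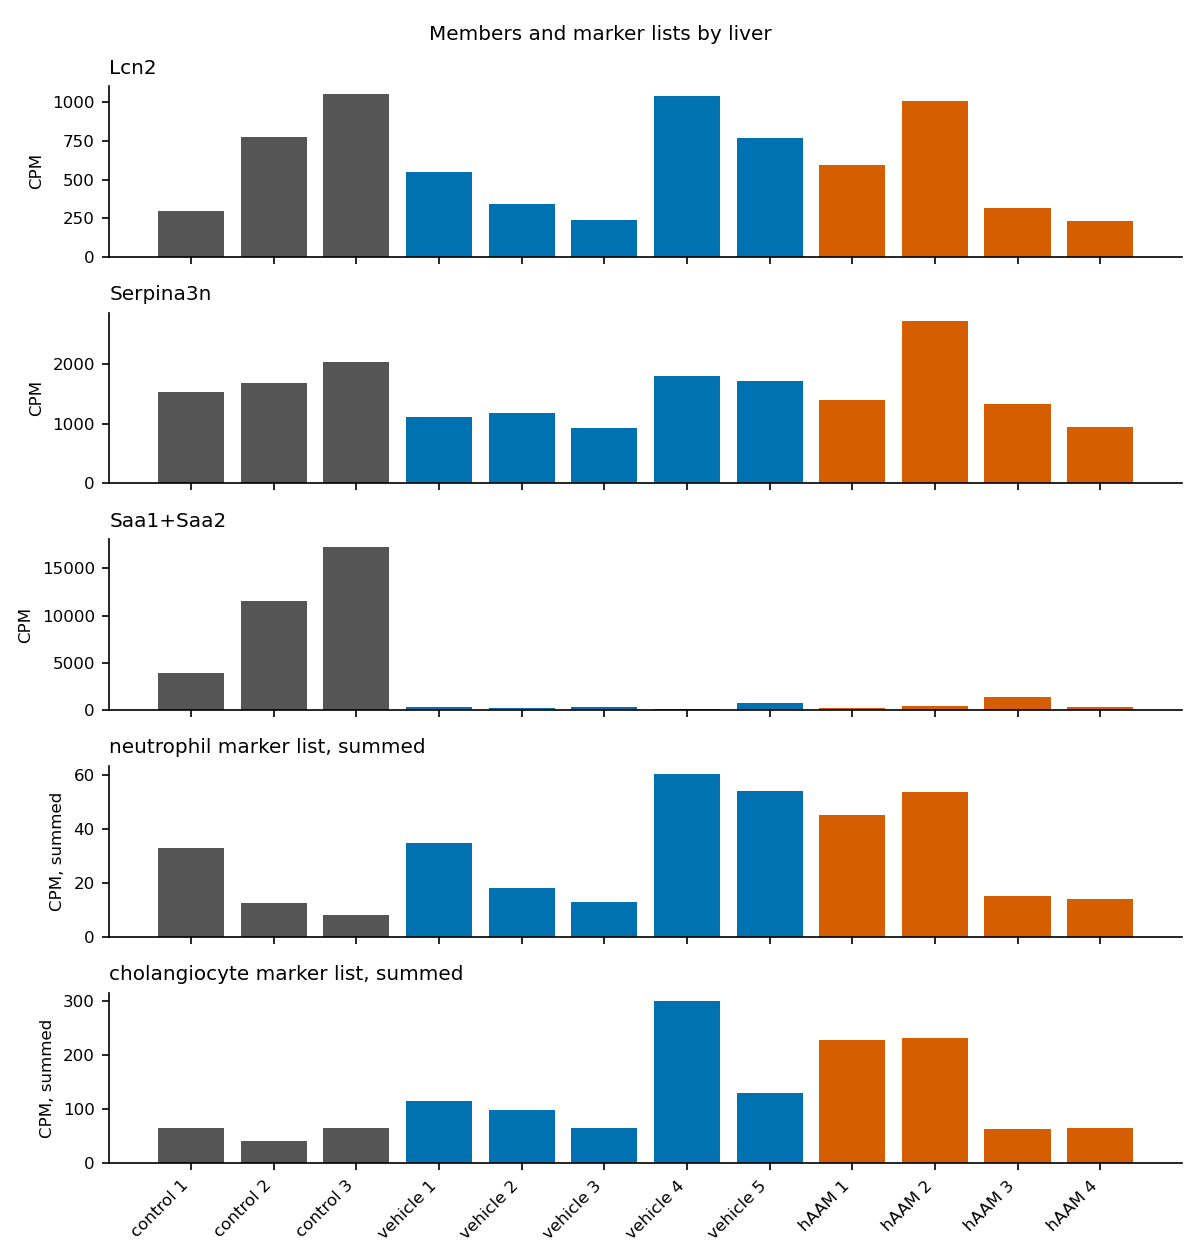
Lcn2, Serpina3n, the Saa1 and Saa2 sum, and the summed neutrophil and cholangiocyte marker lists in each liver (bars, CPM from 0). Vehicle replicates 4 and 5 and hAAM replicates 1 and 2 carry the most Lcn2 of the injured livers and neutrophil sums of 45.4 to 60.4 CPM, whereas hAAM replicate 3 carries the largest Saa1 and Saa2 sum of the injured livers, 1344 CPM.

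Counted over the 10 genes, all 10 were lower than control with vehicle and all 10 with hAAMs, with a median log2 fold change of −1.67 and −1.48 beside 0.01 and 0.02 over all genes tested. With vehicle, 8 passed edgeR's FDR threshold of 0.05 as lower, where 14.8% of all genes tested did and 15% were higher. With hAAMs, 8 passed, where 9.96% of all genes were lower and 10.7% higher. Since the genes were chosen with these differences known, nothing is read from these counts. They were 6 and 5 without control replicate 2, where 11.9% and 7.72% of all genes were lower, and 6 and 4 without control replicate 3, where 10.4% and 5.66% were. The share of all genes called lower with hAAMs was likewise 6.54% without control replicate 1, 6.21% without hAAM replicate 1 and 6.44% without hAAM replicate 2. With both nearly alike libraries left out the counts were 8 and 7 (all genes 14% and 8.49% lower), the Hpx call with hAAMs being lost (−0.72, edgeR adjusted p 0.0922). In 6 genes no vehicle liver reached any control, where 17.3% of all genes tested lay so, and likewise in 6 genes with hAAMs, where 14.2% did. Both comparisons share the 3 control livers.

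Per kilobase of the annotated coding transcript, which allows levels to be compared between genes, the order changed between groups. Control livers had Saa2 at 9721 ± 6333, Saa1 at 8237 ± 4670, Hpx at 8002 ± 2469 and Hp at 7987 ± 2572 CPM per kb (SD, n = 3), and these 4 levels did not differ beyond their spread. Orm1 followed at 3004 ± 1144 CPM per kb, then Serpina3n (843), Lcn2 (773), Orm2 (514), Saa4 (402) and Saa3 (345), and each of these 5 lay within the added standard deviations of its neighbour. In vehicle livers Hp (4400.4 ± 738 CPM per kb) and Hpx (3534 ± 688) led, within their added standard deviations of each other, followed by Orm1 at 1431 ± 348. Serpina3n (650.3 ± 187) and Lcn2 (641 ± 356) came next and were not told apart, and Saa1 and Saa2 had moved down to 283 ± 171 and 243 ± 218 CPM per kb. Saa3 was last at 6.08 ± 2.73. In hAAM livers Hpx (4350.2 ± 1100.0) and Hp (4217 ± 523) led together, followed by Orm1 at 1421 ± 378, and Saa1 and Saa2 stood at 554 ± 511 and 376 ± 351 CPM per kb. With all annotated exons in place of the coding transcript, the control order opened with Hpx, Hp and Orm1, and Saa2 came at 2339.6 and Saa1 at 2024 CPM per kb, so the place of Saa1 and Saa2 at the top rests on the length used.

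The question the treatment arms address is whether hAAMs changed the injured liver. None of the 10 passed edgeR's FDR threshold between hAAM and vehicle livers (adjusted p of 0.966 or more), where 0% of all genes tested did. None had an unadjusted edgeR p under 0.05 with all livers, where 5.02% of all genes had, and DESeq2 called none of the 10. Saa3 had an unadjusted edgeR p of 0.0263 with both nearly alike libraries left out, 0.0246 without vehicle replicate 5, 0.0477 without hAAM replicate 1 and 0.0114 without hAAM replicate 4, and Saa1 one of 0.0387 with the replicate number as a block, none of them passing after adjustment. Of the 10, 7 were higher and 3 lower with hAAMs, with a median log2 fold change of 0.28.

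Saa1 differed by 0.97 on the log2 scale (95% confidence interval −0.38 to 2.32, edgeR adjusted p 0.969), but by 0.089 without hAAM replicate 3. Saa3 followed at 0.76 (−0.12 to 1.65, edgeR adjusted p 0.966) and Saa2 at 0.63 (−0.96 to 2.21, edgeR adjusted p 0.986). For the Saa1 and Saa2 sum it was 0.82 (−0.64 to 2.28, edgeR adjusted p 0.973). The intervals leave room for changes of several-fold in Saa1, Saa2, Saa3 and the sum, so that their equality between treatments is not shown. That liver also set the direction of the sum, which was −0.07 without it, as Saa2 was −0.27. For Saa3 the difference was 0.45 to 1.05 over all settings tried, with adjusted p of 0.693 or more.

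The interval was narrower for the more evenly expressed genes. It ran from −0.52 to 0.40 for Hp (difference −0.06), −0.23 to 0.83 for Hpx (0.30), −0.59 to 0.57 for Orm1 (−0.01) and −0.30 to 0.88 for Saa4 (0.29). A change of 2-fold lies outside all 4 of these intervals, as it does for Serpina3n. Serpina3n differed by 0.25 (−0.38 to 0.88), Orm2 by 0.28 (−0.62 to 1.18) and Lcn2 by −0.12 (−1.25 to 1.00). Single livers turned several of these directions. Serpina3n was −0.14 without hAAM replicate 2, and Lcn2 was 0.19 without vehicle replicate 4, 0.065 without hAAM replicate 3 and 0.13 without hAAM replicate 4. Hp was 0.016 without vehicle replicate 5 and 0.010 without hAAM replicate 4, and Orm1 was above 0 without any 1 of vehicle replicates 1 and 5 and hAAM replicates 1 and 4. The count of 7 higher and 3 lower thus rests on single livers. With vehicle replicate 3 and hAAM replicate 4 both left out, none of the 10 passed either (edgeR adjusted p of 0.693 or more). Saa1 was then 1.17, Saa2 0.75, their sum 0.98, Saa3 0.92 and Saa4 0.37. Orm2 was 0.35, Hpx 0.38 and Serpina3n 0.33, Lcn2 was −0.076 and Hp −0.057, and Orm1 turned to 0.02.

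**Figure D3:**
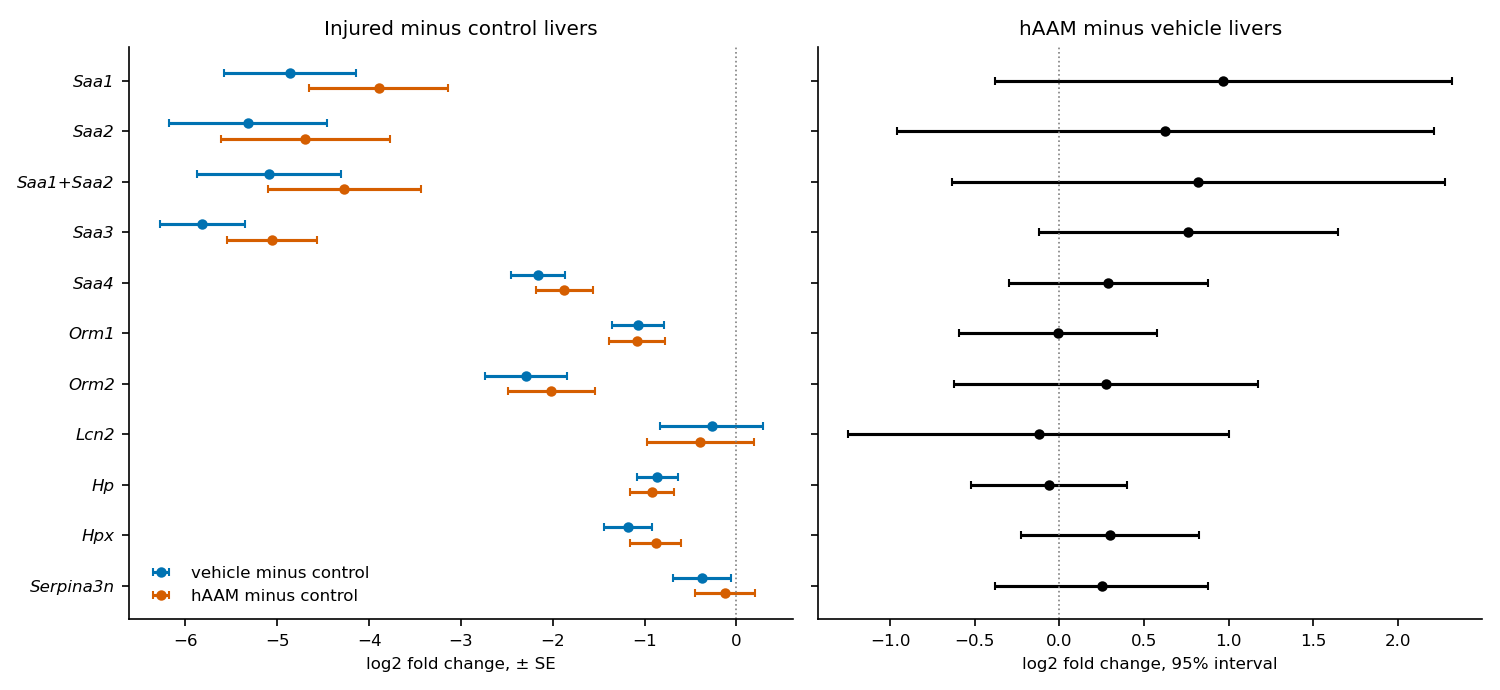
Left, log2 fold change of each acute-phase gene in vehicle and in hAAM livers against the shared control livers, with bars of 1 standard error. Right, log2 fold change of hAAM against vehicle livers with 95% confidence intervals. Saa1, Saa2 and Saa3 lie furthest below 0 on the left, from −3.89 to −5.82, and every interval on the right includes 0.

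The wider acute-phase response is described with lists of genes. These lists too were chosen with earlier results of these data known, so their counts and adjusted p-values against control are a description and support nothing further. Counts of lower and higher genes in these lists, and the shares of all genes beside them, are calls at edgeR's FDR threshold of 0.05. Of 40 other positive acute-phase genes, 18 were called lower with vehicle and 1 higher, where 14.8% of all genes tested were called lower and 15% higher. By sign alone 35 of the 40 were lower, and the list's median log2 fold change was −0.67. Steap4, a metalloreductase induced by inflammation, fell the most, from 1278 ± 237 CPM (SD, n = 3) in control to 163 ± 4.63 CPM (n = 5) in vehicle livers, by 2.97 on the log2 scale (edgeR adjusted p 3.07e-07). The pattern-recognition proteins C-reactive protein (Crp) and mannose-binding lectin (Mbl1) and the lipopolysaccharide-binding protein Lbp fell by 1.57, 1.63 and 1.5 (edgeR adjusted p 1.67e-05, 9.84e-05 and 0.000212). The fibrinogen chains Fga, Fgb and Fgg all fell, Fgb by 1.05 (edgeR adjusted p 0.0012) from 9554 ± 1891 CPM in control to 4613 ± 377 CPM in vehicle livers. Serum amyloid P (Apcs), the mouse pentraxin most used as an acute-phase marker, differed by −0.57 (edgeR adjusted p 0.186), which became −0.89 (0.0342) without control replicate 1. Serpina3m was the only gene called higher, by 0.40 (edgeR adjusted p 0.0194), and did not pass without control replicate 1 (0.36, 0.0737). With hAAMs, 18 were called lower and none higher, where 9.96% of all genes tested were called lower and 10.7% higher. By sign alone 34 were lower, with a median of −0.64. Apcs passed there at −1.11 (edgeR adjusted p 0.0319), but not without control replicate 2 (−0.79), control replicate 3 (−1.02) or hAAM replicate 1 (−1.04), 2 (−0.98) or 4 (−1.12).

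Of 17 negative acute-phase genes, which inflammation lowers, 6 were called lower with vehicle and 1 higher, where 14.8% of all genes tested were called lower and 15% higher. By sign alone 13 were lower, with a median of −0.58. With hAAMs 2 were called lower and 1 higher, near the 9.96% and 10.7% of all genes, with a median of −0.40, and these 3 calls were 6 without hAAM replicate 3 (24.2% of all genes called) and 1 without control replicate 1 or 3 or hAAM replicate 1 (13.1%, 10.5% and 12.5%). The hormone carriers Serpina6 (corticosteroid-binding globulin) and Serpina7 (thyroxine-binding globulin) fell by 2.97 and 2.90 (edgeR adjusted p 0.0191 and 0.00131), or −4.02 without vehicle replicate 3 (−4.01 without both nearly alike libraries) and −3.53 without vehicle replicate 5 in turn. Serpina6 stood at 45.6 CPM in vehicle replicate 3 and 2.96 to 11.1 CPM in the other vehicle livers. Fetub, a fetuin, fell by 0.85 (edgeR adjusted p 0.00532) and antithrombin (Serpinc1) by 0.82 (0.0159), the latter not passing without control replicate 1 (−0.79, 0.0501). The fetuin Ahsg rose by 0.51 (edgeR adjusted p 0.0377), a call lost without any 1 of control replicates 1 to 3 or vehicle replicates 1 to 3 (log2 fold changes 0.42 to 0.60). Albumin (Alb) differed by 0.15 and transthyretin (Ttr) by −0.06 (edgeR adjusted p 0.729 and 0.871). Ttr was 0.29 without control replicate 1. Those called with hAAMs were Serpina7 and the clotting factor F12, lower by 2.44 and 0.46 (edgeR adjusted p 0.00717 and 0.0364), and Ahsg, higher by 0.61 (0.028), while Serpina6 differed by −1.83 (0.155). The F12 call was lost without any 1 of control replicates 1 to 3, vehicle replicate 1 or hAAM replicate 1, 2 or 4, and the Ahsg call without control replicate 1 or 3 or hAAM replicate 1.

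**Figure D4:**
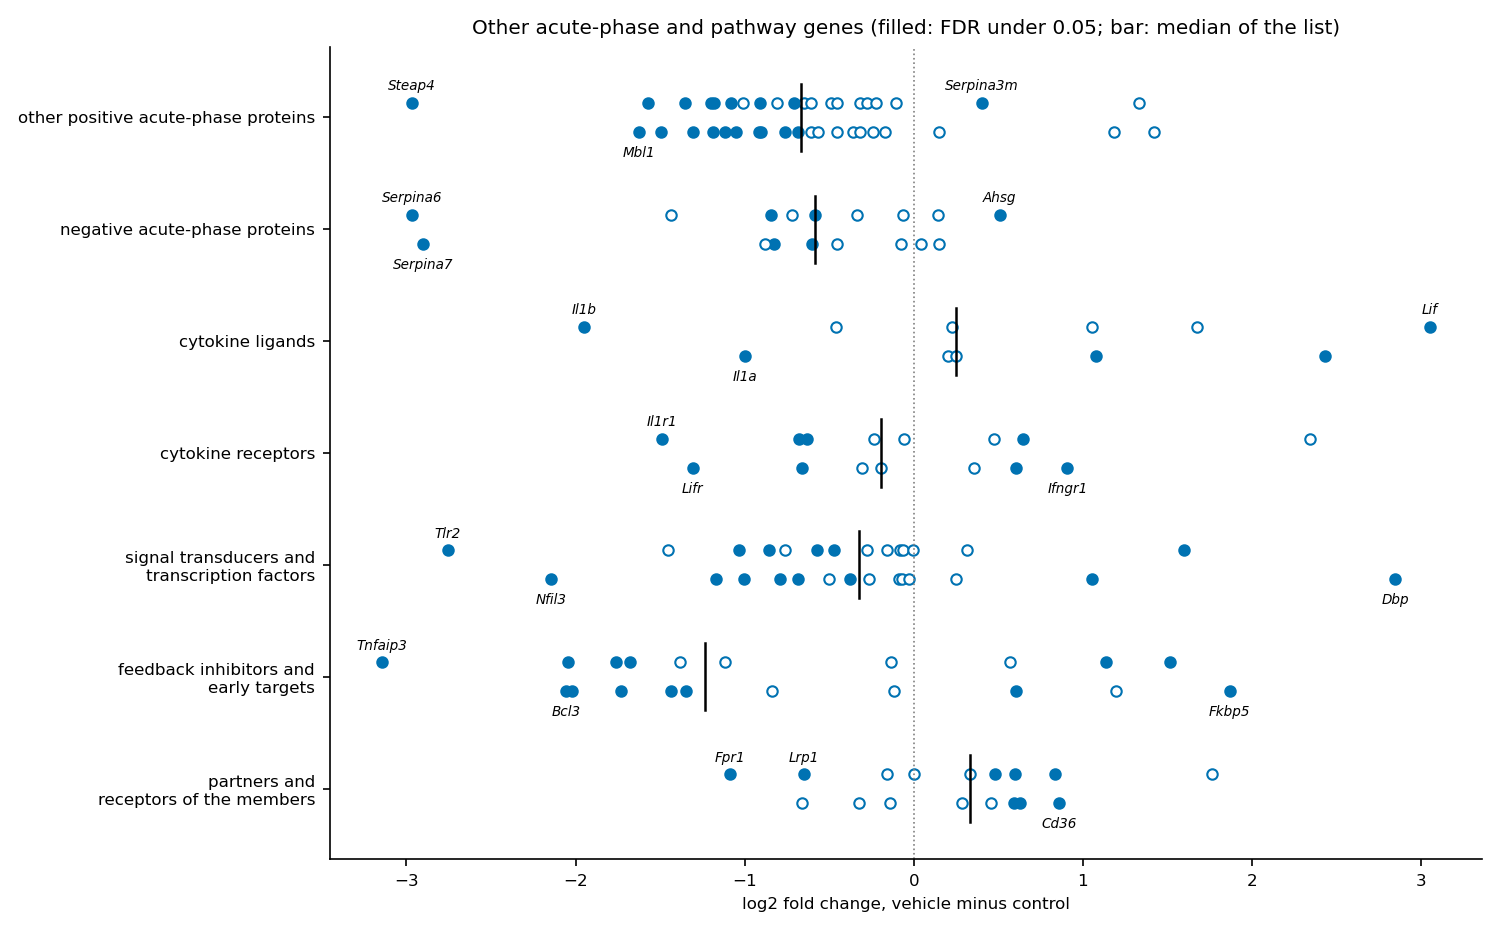
Log2 fold change of vehicle against control livers for the other positive and the negative acute-phase genes, the genes of cytokine signalling by role, and partners and receptors of the acute-phase proteins. Each point is a gene, filled where edgeR's FDR was under 0.05, and the bar is the list's median. The median is −0.67 for the other positive acute-phase genes, −1.23 for feedback inhibitors and early targets (−0.18 without control replicate 1), and 0.34 for partners and receptors.

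The cytokine pathway upstream of these genes was followed by role, over 74 tested genes of 77 listed. With vehicle 27 were called lower and 13 higher, where 14.8% of all genes tested were called lower and 15% higher, and with hAAMs 23 and 12, where 9.96% of all genes tested were called lower and 10.7% higher. Among 11 tested ligands, 2 were called lower, a share near that of all genes (14.8%), and 3 higher (15% of all genes) with vehicle. Il6 itself had 64 reads in all livers together, 39 of them in 1 liver, and was not tested. The IL-1 genes Il1b and Il1a fell by 1.95 and 1.00 (edgeR adjusted p 0.0397 and 0.0277), but Il1b stood at 22.3 CPM in control replicate 1 and 2.63 and 3.18 CPM in the other controls. Without that liver their differences were −0.26 and −0.27 (edgeR adjusted p 0.735 and 0.243). The Il1b call was also lost without vehicle replicate 1 (−1.91), 2 (−1.87), 3 (−1.75) or 4 (−2.13), and that of Il1a without vehicle replicate 2, 4 or 5, its log2 fold change running from −1.29 to −0.27 over all livers left out. Of the ligands called higher, Tgfb1 rose by 1.08 (edgeR adjusted p 0.0218), a call lost without control replicate 2 (1.01) or 3 (0.96). The gp130 ligands Clcf1 and Lif rose by 2.43 and 3.05 (edgeR adjusted p 0.000912 and 0.0232), from 1.22 to 6.59 and from 0.326 to 2.67 CPM on average. Lif was 4.63 without control replicate 1, and its call was lost without control replicate 2 (2.55) or 3 (2.7). Tnf and the IL-6 relative Osm differed by −0.46 and 1.67 (edgeR adjusted p 0.694 and 0.147), which became 1.89 (0.0746) and 3.48 (0.0433) without control replicate 1. With hAAMs Clcf1 and Tgfb1 were higher, by 1.78 and 0.97 (edgeR adjusted p 0.0074 and 0.0498), the latter losing its call without any 1 of 8 livers.

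Among 15 receptors, 5 were called lower and 3 higher with vehicle, beside 14.8% and 15% of all genes. The IL-1 receptor Il1r1 fell by 1.49 (edgeR adjusted p 4.16e-05), from 218 to 295 CPM in control to 77.3 to 94.7 CPM in vehicle livers, without overlap. The leukemia inhibitory factor receptor Lifr fell by 1.31 (edgeR adjusted p 7.6e-05) and its partner gp130 (Il6st) by 0.66 (0.00124), at 487 to 559 CPM in control and 278 to 397 CPM in vehicle livers. The IL-6 receptor Il6ra differed by 0.48 (edgeR adjusted p 0.115) and the oncostatin M receptor Osmr by −0.19 (0.474). The interferon gamma receptor Ifngr1 rose by 0.91 (edgeR adjusted p 0.000696). The TNF receptor Tnfrsf1a fell by 0.63 (edgeR adjusted p 0.00053). The calls of the IL-1 receptor subunit Il1rap (−0.68), the IL-22 receptor Il22ra1 (0.65) and the IL-10 receptor Il10rb (0.60) depended on single livers, being lost without any 1 of 8, 5 and 6 of the 12. With hAAMs 4 receptors were called lower and 2 higher (all genes 9.96% and 10.7%), Il1r1, Lifr, Il6st and Tnfrsf1a against Ifngr1 and Il10rb, the Il10rb call being lost without any 1 of 7 livers.

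Among 28 signal transducers and transcription factors, 11 were called lower and 3 higher with vehicle, beside 14.8% and 15% of all genes, and without control replicate 1 they were 8 and 3, beside 10.5% and 11%. Stat3, which carries the IL-6 signal, fell by 0.79 (edgeR adjusted p 0.000235), from 291 to 300.5 CPM in control to 153 to 191 CPM in vehicle livers. Stat5a fell by 1.17 (edgeR adjusted p 0.00196), or by 0.74 (0.00313) without control replicate 1. Cebpb and Cebpd differed by −0.50 and −0.76 (edgeR adjusted p 0.166 and 0.111), Cebpd by 0.02 without control replicate 1 and by −1.12 (0.0197) without control replicate 3. The receptor Tlr2 fell by 2.75 (edgeR adjusted p 0.00219), or by 1.43 (0.00536) without control replicate 1, which held 76.7 CPM against 9.80 and 18.0 CPM. The clock-output repressor Nfil3 fell by 2.14 (edgeR adjusted p 0.000127), while the clock-output activators Tef and Dbp, which bind the same class of sites, rose by 1.6 and 2.85 (0.00086 and 0.00567). Both directions held without any 1 liver (Nfil3 −1.93 to −2.28, Tef 1.42 to 1.79, Dbp 2.44 to 3.42). Tlr4 was the remaining gene called higher, by 1.06 (edgeR adjusted p 0.008). With hAAMs 10 were called lower and 3 higher (all genes 9.96% and 10.7%), the latter being Tlr4, Tef and Foxo1, of which Tlr4 and Foxo1 lost their calls without control replicate 1 and Foxo1 also without control replicate 2.

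Of 20 feedback inhibitors and early targets of these cytokines, 9 were called lower and 4 higher with vehicle, beside 14.8% and 15% of all genes. Their median was −1.23, but −0.18 without control replicate 1, when the other positive acute-phase genes had −0.71. The NF-kB inhibitors Tnfaip3 and Nfkbia fell by 3.14 and 1.44 (edgeR adjusted p 0.0042 and 0.0211). The STAT target Irf1 and the IL-6 feedback inhibitor Socs3 fell by 2.02 and 2.05 (edgeR adjusted p 0.00706 and 0.00136). These values rested in large part on control replicate 1, which held 249.6 CPM of Tnfaip3 against 40.3 and 12.5 CPM in control replicates 2 and 3. It held 173 CPM of Nfkbia against 40.1 and 30.7 CPM, 189.5 CPM of Irf1 against 30.2 and 33.8 CPM, and 189 CPM of Socs3 against 51.0 and 72.9 CPM. It was the highest control in 15 of the 20 genes (75%), against 36.3% of all genes tested, while it was the lowest in 9 of the 10 acute-phase genes.

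Without control replicate 1, 6 genes of the list were called lower with vehicle and 4 higher, and the cytokine signalling genes together had 18 called lower and 14 higher, where 10.5% of all genes were called lower and 11% higher. Tnfaip3 was then −1.21 (edgeR adjusted p 0.0277), Irf1 −0.62 (0.00863), Socs3 −1.30 (0.00293) and Nfkbia −0.24 (0.182). The NF-kB cofactor Bcl3 fell by 2.05 (edgeR adjusted p 0.000108) with all livers and 1.79 without that one. Those called higher were the glucocorticoid targets Fkbp5 and Per1, by 1.87 and 1.14 (edgeR adjusted p 0.00026 and 0.000769), the STAT inhibitor Pias3 by 0.61 (0.00509) and Myc by 1.52 (0.00834), or 2.16 without control replicate 1. With hAAMs the feedback list had 9 called lower and 5 higher (all genes 9.96% and 10.7%), or 5 and 3 without control replicate 1 (all genes 6.54% and 6.57%). Tsc22d3, a glucocorticoid target, joined those called higher (0.99, edgeR adjusted p 0.0156), though not without control replicate 1 or 3. Of the others called higher with hAAMs, Pias3 lost its call without any 1 of 6 livers and Myc without control replicate 2 or 3 or hAAM replicate 2. Of those called lower, Tnfaip3 lost its call without control replicate 1, and Nfkbia without that liver or any 1 of hAAM replicates 1 to 4.

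**Figure D5:**
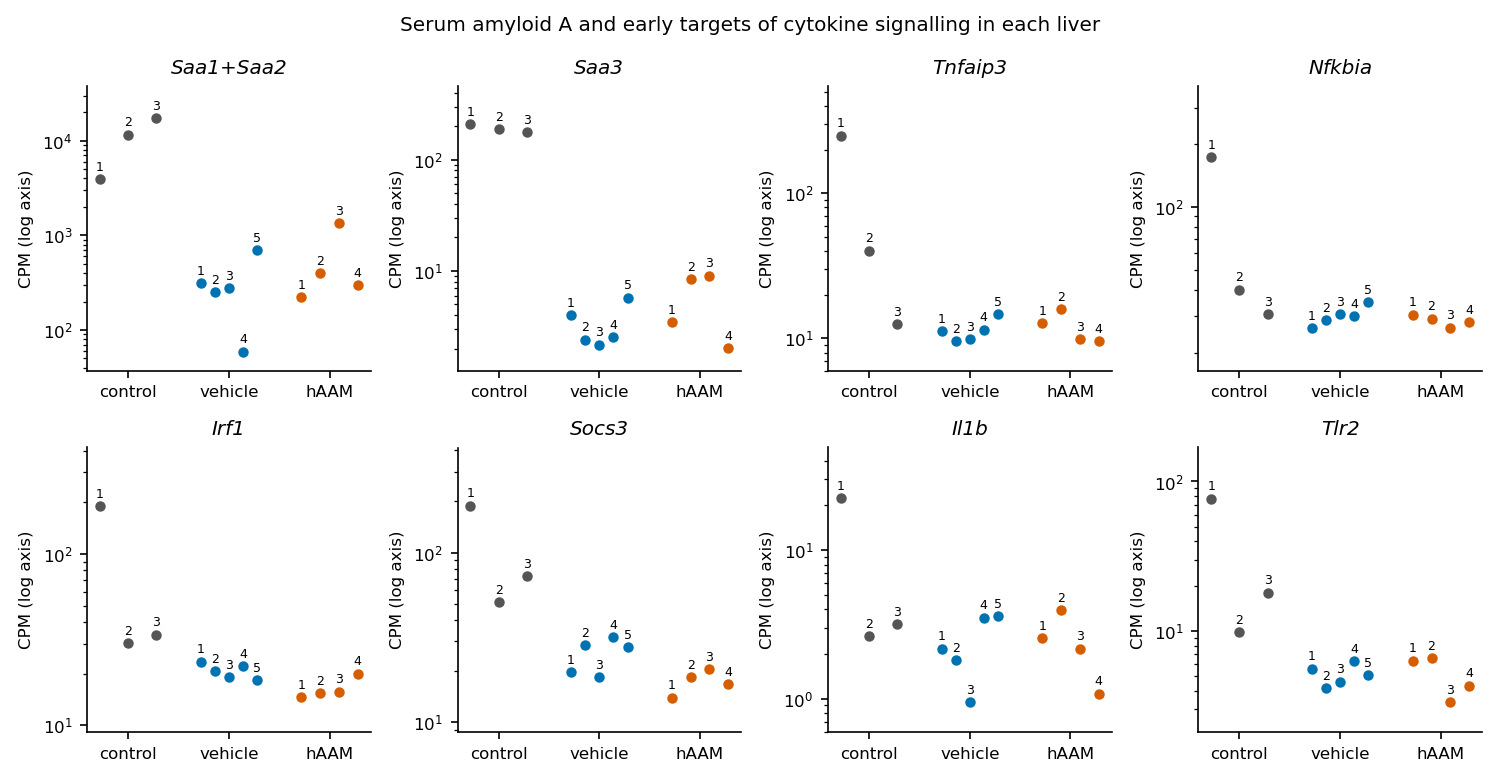
The Saa1 and Saa2 sum, Saa3 and 6 genes of cytokine signalling in each liver (CPM, log axis), points numbered by replicate. Control replicate 1 holds the lowest Saa1 and Saa2 sum of the controls, 3910 CPM, and the highest Tnfaip3, Nfkbia, Irf1, Socs3, Il1b and Tlr2 of all livers.

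Of 17 tested partners and receptors of the acute-phase proteins, 2 were called lower and 6 higher with vehicle, where 14.8% of all genes tested were called lower and 15% higher, with a median of 0.34. These 8 calls were 4 without control replicate 1 or 3 (21.5% and 20.1% of all genes called) and 5 without vehicle replicate 1 or 2 (24.3% and 25.6%). Lrp1, which takes up hemopexin and its heme, fell by 0.65 (edgeR adjusted p 0.00971), a call lost without control replicate 3 (−0.49, 0.0581). Fpr1, a formyl peptide receptor, fell by 1.09 (edgeR adjusted p 0.00587), or by 0.72 (0.0343) without control replicate 1. Cd163, the haptoglobin-hemoglobin receptor of macrophages, differed by 0.46 (edgeR adjusted p 0.117) and passed without control replicate 3 (0.74) or vehicle replicate 3 (0.57). Heme oxygenase (Hmox1), which breaks the delivered heme down, differed by 0.00 (edgeR adjusted p 0.996), with control replicate 1 at 123 CPM against 33.3 and 26.6 CPM, and by 1.03 (0.0774) without it. The iron-storage subunit Fth1 rose by 0.84 (edgeR adjusted p 0.00196). The scavenger receptor Cd36, to which serum amyloid A binds, rose by 0.86 (edgeR adjusted p 0.0116), a call lost without control replicate 1 (0.69) or 3 (0.80). The transferrin receptor Tfrc rose by 0.63 (edgeR adjusted p 0.0377), a call lost without control replicate 1 (0.51), control replicate 3 (0.60) or vehicle replicate 1 (0.57), 2 (0.65) or 5 (0.51). With hAAMs Fpr1 and Lrp1 were lower, the Lrp1 call being lost without control replicate 3 (−0.53, edgeR adjusted p 0.0715), and Cd36 (1.2, edgeR adjusted p 0.00492), Fth1 (0.49, 0.0373) and the lipocalin-2 receptor Slc22a17 (0.60, 0.0247) were higher. The Fth1 call was lost without control replicate 1, 2 or 3 or hAAM replicate 1 or 4, and that of Slc22a17 without control replicate 1 or 2. All genes gave 9.96% lower and 10.7% higher, and these 5 calls were 3 without control replicate 1, 2 or 3 (13.1%, 15% and 10.5% of all genes called).

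With vehicle replicate 3 and hAAM replicate 4 both left out, among the named genes of these lists the calls of Il1a, Il1b and Ahsg with vehicle and of Apcs, Ahsg, F12, Nfkbia, Fth1 and Slc22a17 with hAAMs were lost (edgeR adjusted p 0.0542 to 0.0792).

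Between hAAM and vehicle livers no gene of these lists passed the edgeR threshold, and DESeq2 called none. At an unadjusted edgeR p under 0.05 stood none of the 40 other positive and none of the 17 negative acute-phase genes, 7 of 74 cytokine signalling genes and 2 of 17 partners and receptors, beside 5.02% of all genes tested.

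The genes most like the Saa1 and Saa2 sum were found over the 9 injured livers, by Pearson correlation of log2 CPM after each treatment's mean was subtracted. They were Zfp637 (0.930), Prorsd1 (0.924), Itih4 (0.914), Nrbf2 (0.908), Cbx8 (0.907), Tent5c (0.906), Yipf4 (0.904), Lcorl (0.904), Tshz2 (0.902) and Rab10 (0.888). Itih4, an acute-phase inhibitor of the inter-alpha-trypsin family, was the only one of them on the acute-phase lists and ranged from 2474 to 5987 CPM in injured livers. When the likeness was computed without hAAM replicate 4, 3 of the 10 (Itih4, Yipf4 and Tshz2) were again among the 10 most alike, and without both nearly alike libraries none was, an alternative chosen after seeing the data. These points share their libraries and scaling, and no test was made.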

How the data were processed

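Livers of 12 mice were profiled. Per the labels and methods, the authors trimmed paired reads with cutadapt 4.6, aligned them to GRCm38 with STAR 2.7.1a, checked quality with FastQC and MultiQC 1.25, and deposited raw counts per Ensembl gene made with summarizeOverlaps. The deposited table has no gene with fewer than 15 counts in total. Strand and overlap settings of the counting are not given in the sources used here, so reads of close copies such as Saa1 and Saa2 may be assigned unevenly. The submitters' notes also name DESeq2 1.38.3.

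Counts were tested with the quasi-likelihood test of edgeR 4.0.16 (limma 3.58.1, R 4.3.3), with TMM scaling, filterByExpr by group with a minimum count of 10, and all 12 livers in one fit with 1 coefficient per group. P-values were adjusted by Benjamini-Hochberg over all 22581 genes, with a threshold of 0.05. The CPM used TMM library sizes, with a prior count of 2 on the log2 scale. The biological coefficient of variation was 0.214. Shares were compared by exact permutation. Alternatives were DESeq2 1.42.0, other scalings and filters, the replicate number as a block, only the groups compared, and leaving out livers. The script was tested on simulated data.

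The members and all lists were chosen with earlier results of these data known. Named list genes were the 4 whose significant change with vehicle was largest, provided that their log2 CPM averaged 2 or more, plus a fixed set of defining genes. Others (Serpina3m, Ahsg, F12, Il1a, Lif, Clcf1, Tnfrsf1a, Il22ra1, Il10rb, Tlr4, Dbp, Foxo1, Pias3, Myc, Fkbp5, Per1, Tsc22d3, Fpr1 and Slc22a17) were named after their values were seen, because 5 or fewer of a list passed in that direction, and Fga and Fgg with Fgb. Replicate numbers were checked as pairs and did not pair the livers. Il22, Ifng and Ctsg were not analysed here.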

Additional observations from a re-analysis of the deposited data

Results flagged for a closer look

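Each gene named here and the Saa1 and Saa2 sum were checked within the vehicle and within the hAAM livers, in 142 checks. In 6 of these a single liver's gap to its nearest neighbour was large for the range of its group, where chance alone gives about 1 in 20. The checks share the same injured livers and are not independent. None was in an acute-phase gene of the main list. Crp was 8.21 log2 CPM in hAAM replicate 3 and 7.83 to 7.87 in the other hAAM livers. The same liver had the lowest Bcl3, 3.87 against 4.78 to 4.86. Lifr was 7.46 in hAAM replicate 2 against 7.77 to 7.82, Fkbp5 was 5.83 in hAAM replicate 1 against 6.66 to 6.76, and Il1a was 1.32 in hAAM replicate 4 against 1.72 to 1.76. In vehicle livers, Tef was 6.47 in replicate 2 and 6.64 to 6.68 in the others.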

How the results depend on the processing

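The 8 calls of acute-phase genes against control with vehicle were 6 to 8 under every alternative, and the 8 with hAAMs fell to 5 with library size alone, 5 with only the groups compared in the fit, and 4 to 8 with 1 liver left out. Negative acute-phase genes against control with hAAMs (3 calls) gave 1 with only the groups compared, 1 without both nearly alike libraries and 1 to 6 with 1 liver left out. Partners and receptors gave 4 to 8 with vehicle (8 calls) with 1 liver left out, and with hAAMs (5 calls) 8 with library size alone, 3 with only the groups compared, 3 without both nearly alike libraries and 3 to 7 with 1 liver left out. Over all genes the share called with hAAMs moved as well, being 12.7% with only the groups compared, 32.5% with library size alone, 19.6% without both nearly alike libraries and 10.5% to 24.2% with 1 liver left out, and with vehicle it was 20.1% to 32% with 1 liver left out. Library size alone moved the median of all genes to 0.36 with vehicle and 0.32 with hAAMs, and turned Osmr to 0.16 and 0.19, Ttr to 0.28 and 0.26, and, with hAAMs, Cd163 to 0.27 and Hmox1 to 0.16. Relative to that shift these values lie below the median gene. Hmox1 with vehicle was −0.016 by DESeq2 and −0.015 with RLE size factors.

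Between hAAM and vehicle livers no acute-phase gene passed under any alternative. With 1 liver left out, the difference ran from 0.089 to 1.3 for Saa1, −0.27 to 1.32 for Saa2, −0.066 to 1.33 for the Saa1 and Saa2 sum, −0.14 to 0.15 for Orm1, −0.62 to 0.19 for Lcn2, −0.14 to 0.016 for Hp and −0.14 to 0.44 for Serpina3n, and Orm1 was 0.021 without both nearly alike libraries. The shares ran from −0.554 to 3.75 points for Saa1 and −0.131 to 0.197 points for Saa3. Against control, with 1 liver left out, values ran with vehicle and with hAAMs from −0.97 to 1.89 and −1.12 to 1.73 for Tnf, −1.12 to 0.020 and −0.84 to 0.29 for Cebpd, −0.065 to 0.29 and −0.0039 to 0.35 for Alb, −0.21 to 0.29 and −0.19 to 0.32 for Ttr, −0.36 to 1.03 and −0.51 to 0.87 for Hmox1, and with hAAMs from −0.23 to 0.018 for Osmr and −0.22 to 0.24 for Cd163. The cause was not tested.

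With the replicate number as a block, 18.8% of all genes were called with vehicle and 13.1% with hAAMs, acute-phase genes with hAAMs had 4 calls, negative acute-phase genes 4 with vehicle and 1 with hAAMs, and partners and receptors 5 with vehicle. Orm1 was 0.055, Lcn2 0.042 and Hp 0.0078 between hAAM and vehicle livers, Ttr 0.11 with vehicle and 0.026 with hAAMs, and Hmox1 0.082 with hAAMs. The numbers do not pair the livers, since same-numbered livers correlated at −0.458 to 0.385 over 10 pairs, 3 of them over 0.1, and 2 of 12 livers correlated best with their own number.

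Lif in control livers and Osm rest on few reads, whereas Saa3, at a few CPM in injured livers, had 108 to 468 reads in each of them. The 3 control livers limit every difference from control.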
